A study of Homo sapiens with 76 samples.

Results

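The genes of mitochondrial protein import, the outer membrane porins and the inner membrane carriers of the SLC25 family were described across 76 single HEK293 cells. Members were taken by symbol (TOMM, TIMM, SLC25A or VDAC followed by a number, pseudogene symbols left out), which gave 65 of the 17513 gene rows of the deposited table. They comprised 21 import genes, 3 porins, 39 carriers and 2 antisense RNA genes named after carriers. HEK293 is an established human embryonic kidney line. All cells belonged to 1 group, grown in DMEM with glutamine and 10% fetal calf serum, loaded on a Fluidigm C1 chip and lysed in a mix that held 20000 ERCC spike-in molecules for each cell, with no treatment or compared condition. RNA was primed at the poly(A) tail and a unique molecular identifier (UMI), a random tag that lets each cDNA molecule be counted once, was added at the 5' end. Because the labels name no replicate cultures, the 76 cells were treated as 1 sample. Values after ± are SDs over cells, no test between groups was possible, and no p-value was computed.

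Cells gave 7305 to 43392 UMIs from gene rows (median 20966) and 1390 to 3132 from spike-ins. All 6 marker genes listed for the line had UMIs, as did 96.6% of all gene rows. VIM and UCHL1 were seen in 70 cells each, NEFM in 49, KRT18 in 45, NEFL in 26 and KRT8 in 19. Of the markers of other cell types, those for blood gave 6 UMIs in all cells together, fibroblast 12, liver 1 and proximal kidney tubule 16, and 11 of these 17 genes were not analysed here.

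Nearly all mitochondrial proteins are encoded in the nucleus, made in the cytosol and imported. The TOM complex is the entry gate in the outer membrane. From there the small TIM chaperones of the intermembrane space guide hydrophobic proteins, the TIM23 complex passes proteins with a presequence through or into the inner membrane, and the TIM22 complex inserts carriers. SLC25 carriers exchange nucleotides, phosphate, organic acids, amino acids and cofactors across the inner membrane, and the porins (voltage-dependent anion channels) let small metabolites through the outer one.

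The members together took 0.956% ± 0.129 of a cell's UMIs (lowest 0.628%, median 0.952%, highest 1.26%), or 211 ± 90.9 UMIs per cell. Import genes took 0.456% ± 0.0767, carriers 0.371% ± 0.0822 and porins 0.129% ± 0.0344. A UMI marks the 5' end of 1 molecule whatever its length, so UMIs per cell were compared between genes without division by length. Whether long cDNAs more often fail to reach the 5' end was not tested. In all, 63 of 65 members had a UMI in at least 1 cell (96.6% of all gene rows had one), and 29 members (44.6%) averaged 1 UMI per cell or more, a level reached by 16% of all gene rows. By role, that level was reached by 16 of 21 import genes, 3 of 3 porins and 10 of 39 carriers. The 5 most abundant members held 42.6% of the members' UMIs and the 10 most abundant 63.8%. Along the order of these 29 genes, each of the 28 differences between neighbours was smaller than the SD of that difference over cells, so single cells overlap in this order. Within cells some neighbours still had a clear order, with SLC25A5 above TOMM7 in 62 cells and below it in 12, and TOMM7 above SLC25A3 in 54 cells and below it in 18.

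**Figure D1:**
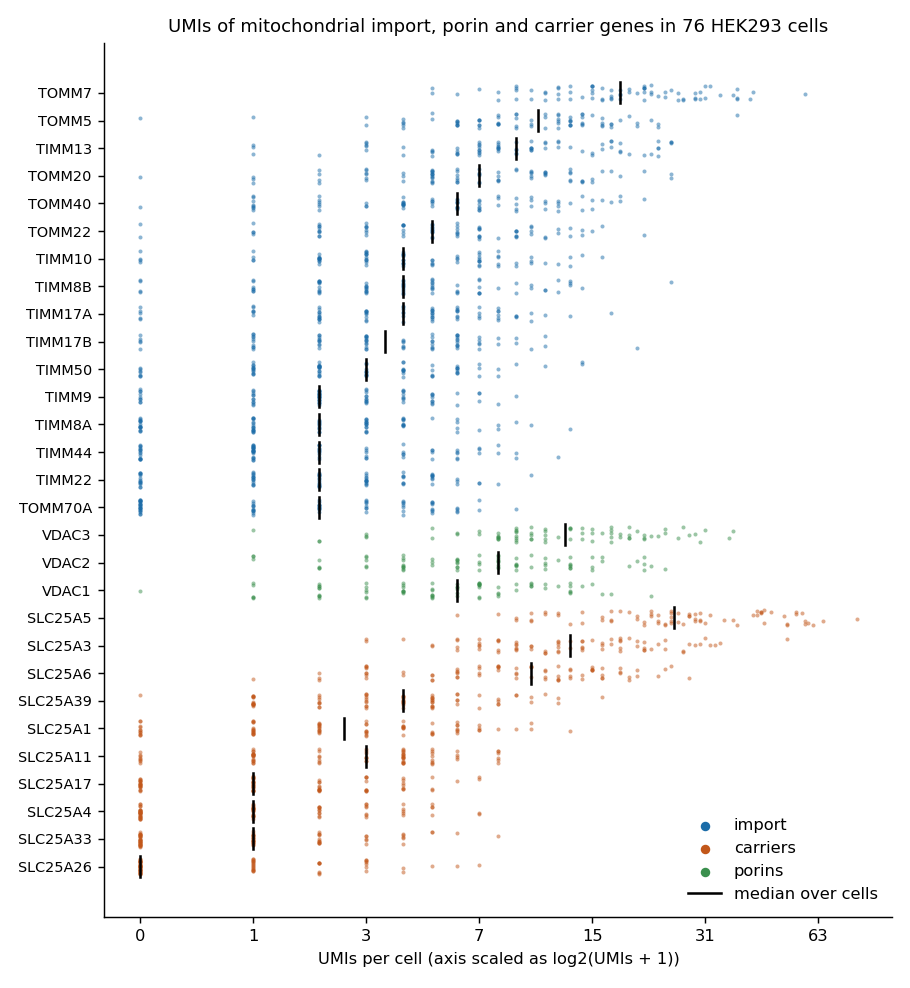
UMIs per cell (horizontal axis, scaled as log2 of UMIs plus 1) for the 29 members that average 1 UMI or more, by role. Each point is 1 of 76 cells and the black bar is the median; SLC25A5 (median 25.5) and TOMM7 (median 18) lie highest, and SLC25A26 has a median of 0.

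The small subunits of the TOM complex led the import genes. TOMM7, a small subunit that modulates assembly of the complex, gave 20.1 ± 10.1 UMIs per cell (lowest 5, median 18, highest 58) and was seen in every cell. TOMM5, another small subunit, gave 11 ± 6.04 (0, 10.5 and 38) and was missing from 1 cell. The receptor TOMM20, which binds presequences, gave 8.05 ± 5.28 UMIs (0, 7 and 25). TOMM40, the channel itself, followed at 6.96 ± 4.80 (0, 6 and 21), and TOMM22, the central receptor, at 6.22 ± 4.16 (0, 5 and 21). These 3 genes each lacked a UMI in 1 or 2 cells, and their ranges overlapped over nearly the whole scale. The receptor for carrier precursors, listed as TOMM70A, was the scarcest of the main subunits at 2.28 ± 2.22 UMIs (0, 2 and 9), seen in 53 cells (69.7%, exact 95% interval 58.1% to 79.8%). TOMM40L, a relative of TOMM40, gave 23 UMIs in 16 cells against 529 for TOMM40, so that 95.8% of the UMIs of both were TOMM40 (exact 95% interval 93.8% to 97.3%). TOMM34, a cytosolic factor, gave 60 UMIs in 35 cells. Intervals here and below cover counting error only.

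Among the small TIM chaperones, TIMM13 was the most abundant with 10.6 ± 6.43 UMIs per cell (lowest 1, median 9, highest 25) and was seen in every cell. TIMM8B, one of 2 possible partners of TIMM13, gave 5.05 ± 4.2 (0, 4 and 25), and its paralogue TIMM8A, the gene of deafness-dystonia syndrome, 2.63 ± 2.58 (0, 2 and 13). TIMM8B had more UMIs than TIMM8A in 49 cells and fewer in 16. TIMM10 gave 5.07 ± 3.52 (0, 4 and 16) and TIMM9, with which it forms a ring, 2.76 ± 2.03 (0, 2 and 9). Both pairs of partners were thus unequal in UMIs, with overlapping ranges in both.

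The TIM23 complex took 0.0739% ± 0.0249 of UMIs over its 7 genes. TIMM17A and TIMM17B, alternative core subunits, were nearly level: TIMM17A gave 4.63 ± 3.23 UMIs (0, 4 and 17) and TIMM17B 4.21 ± 3.24 (0, 3.5 and 20). TIMM17A held 52.4% of their joint UMIs (exact 95% interval 48.5% to 56.2%), being higher in 38 cells, lower in 29 and equal in 9. TIMM50, the presequence receptor of the inner membrane, gave 3.53 ± 2.94 (0, 3 and 14), and TIMM44, which tethers the import motor, 2.62 ± 2.68 (0, 2 and 12). TIMM21, which links the complex to TOM, stayed just under the minimum at 0.987 ± 1.27. TIMM23, the core subunit the complex is named for, gave 43 UMIs in 27 cells, and TIMM23B 1 UMI in 1 cell. These 2 are near-identical copies, and how the authors handled reads with several possible origins is not stated in the sources at hand, so the level of TIMM23 is uncertain. Of the TIM22 complex, TIMM22, its core, gave 2.58 ± 2.17 UMIs (0, 2 and 10).

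VDAC3 was the most abundant of the porins. It gave 14 ± 8.0 UMIs per cell (lowest 1, median 12.5, highest 37), VDAC2 8.66 ± 5.54 (1, 8 and 24) and VDAC1, usually described as the main form, 6.47 ± 4.39 (0, 6 and 22). VDAC3 exceeded VDAC1 in 67 cells and fell below it in 4, and it exceeded VDAC2 in 60 and fell below it in 13. The 4 porin pseudogene rows held 17 UMIs in all, while VDAC1 and VDAC3 held 492 and 1067.

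Carriers were dominated by 3 genes, SLC25A5, SLC25A3 and SLC25A6, which together held 68.2% of the 6186 carrier UMIs. SLC25A5, which encodes adenine nucleotide translocase, the exchanger of ADP and ATP, was the most abundant member of all with 29.9 ± 16.3 UMIs per cell (lowest 6, median 25.5, highest 80) and stood at place 122 among all gene rows by mean. SLC25A3, the phosphate carrier, gave 15.1 ± 8.88 (3, 13 and 52). SLC25A6, a further translocase gene, gave 10.4 ± 6.12 (1, 10 and 28), and the muscle and heart form SLC25A4 1.51 ± 1.74 (0, 1 and 7) in 48 cells. SLC25A31, the germ cell form, was not analysed here. The translocases therefore formed a ladder, with 2.86 SLC25A5 UMIs for each of SLC25A6 and 19.8 for each of SLC25A4. SLC25A5 exceeded SLC25A4 in 76 of 76 cells and SLC25A6 in 71 of 76. SLC25A5 and SLC25A6 have similar sequences and processed pseudogenes (1 such row, SLC25A5P3, held 1 UMI), so reads that fit several copies could shift these values.

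The promoters of the 3 translocase genes are shown because these genes serve the same exchange and differed in level. Each runs from 250 bases before to 50 after the RefSeq start in GRCh38.p14, 5' to 3' on the gene's strand, with motif letters in capitals. The stretches are chrX:119468194-119468493 on the plus strand for SLC25A5, chrX:1392064-1392363 on the minus strand for SLC25A6 and chr4:185143016-185143315 on the plus strand for SLC25A4. They were matched by symbol, since the authors' values rest on hg19 and carry no positions.
SLC25A5: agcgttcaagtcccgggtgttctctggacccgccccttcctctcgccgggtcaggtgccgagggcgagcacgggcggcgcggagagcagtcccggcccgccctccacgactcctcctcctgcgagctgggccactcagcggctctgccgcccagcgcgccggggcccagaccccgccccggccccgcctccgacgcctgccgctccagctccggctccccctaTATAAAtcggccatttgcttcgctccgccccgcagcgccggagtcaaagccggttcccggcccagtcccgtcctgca
SLC25A6: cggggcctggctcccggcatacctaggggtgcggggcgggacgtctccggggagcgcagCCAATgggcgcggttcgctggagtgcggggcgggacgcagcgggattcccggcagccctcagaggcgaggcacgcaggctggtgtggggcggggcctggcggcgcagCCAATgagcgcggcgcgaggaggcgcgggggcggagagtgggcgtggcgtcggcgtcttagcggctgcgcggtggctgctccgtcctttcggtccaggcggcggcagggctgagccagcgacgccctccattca
SLC25A4: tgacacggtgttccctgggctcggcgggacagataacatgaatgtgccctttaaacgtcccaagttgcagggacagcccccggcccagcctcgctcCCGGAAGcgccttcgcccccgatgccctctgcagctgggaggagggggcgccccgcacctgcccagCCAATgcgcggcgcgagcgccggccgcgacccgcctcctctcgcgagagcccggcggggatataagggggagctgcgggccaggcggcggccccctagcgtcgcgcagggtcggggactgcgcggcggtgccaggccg
The capitals in SLC25A5 are the letters TATAAA, beginning 27 bases before the start. SLC25A6 holds CCAAT at 191 and 84 bases before the start and SLC25A4 at 88. SLC25A4 also holds CCGGAAG at 154 bases before the start. The GC content was 73.7%, 75.7% and 73.3% in this order, so the 3 promoters were alike in composition. Only exact matches were marked. SLC25A4 also holds the unmarked letters tataag shortly before the start, which differ from TATAAA in the last letter only. How the motifs relate to the levels was not tested. The region of SLC25A5 overlaps that of its antisense gene SLC25A5-AS1 (2 UMIs, both in 1 cell), and whether the authors' counting used strand is not given in the sources used here.

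Among carriers averaging 1 UMI or more, 6 others had means between 1.03 and 4.38. SLC25A39, linked to glutathione import, gave 4.38 ± 3.12 UMIs (0, 4 and 16) and was seen in 75 cells. SLC25A1, the citrate carrier that feeds fatty acid synthesis, gave 3.20 ± 2.79 (0, 2.5 and 13), and SLC25A11, the oxoglutarate and malate carrier, 3.11 ± 2.27 (0, 3 and 8). SLC25A17, a peroxisomal carrier of cofactors, gave 1.80 ± 1.74 UMIs (0, 1 and 7). SLC25A33, a pyrimidine nucleotide carrier, gave 1.33 ± 1.65 (0, 1 and 8), and SLC25A26, which brings in S-adenosylmethionine, 1.03 ± 1.51 (0, 0 and 7). These last 3 were seen in 36 to 57 cells each.

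The other 29 carriers held 11.8% of the carrier UMIs, and 28 of them were seen in 2 to 39 cells. The highest were SLC25A14 (0.908 UMIs per cell), SLC25A36, another pyrimidine nucleotide carrier (0.842), SLC25A23, an ATP-Mg and phosphate carrier (0.763), SLC25A32, a folate and FAD carrier (0.750), and SLC25A38, a glycine carrier needed for haem synthesis (0.658). Of the aspartate and glutamate carriers of the malate-aspartate shuttle, SLC25A13 gave 49 UMIs in 31 cells and SLC25A12 30 in 18 cells, and SLC25A13 made up 62% of both (exact 95% interval 50.4% to 72.7%). Of the mitoferrins, which carry iron, SLC25A28 gave 31 UMIs in 19 cells and SLC25A37 24 in 16 cells, a split whose interval for SLC25A28 (42.3% to 69.7%) includes equal levels. SLC25A24 and SLC25A25, relatives of SLC25A23, gave 19 and 12 UMIs. No UMI of SLC25A52 was found (0 of 76 cells), so cells with a UMI could make up as much as 3.95% (3 counts) or 4.74% (exact interval). A cell can express a gene at a low level and give no UMI, so expression itself is not bounded by this. As a background, COL1A1, a fibroblast gene, had a UMI in 8 cells (10.5%). No more cells than that were found for 6 carriers with a UMI (SLC25A15, SLC25A48, SLC25A21, SLC25A30, SLC25A43 and SLC25A42), which were not read as expressed. This list depends on the background gene chosen. Of the other markers, LRP2 of the kidney tubule had a UMI in 10 cells and HBA1 of blood in 5.

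SLC25A5 and SLC25A6 had a ratio that varied from cell to cell beyond the spread of spike-in pairs. SLC25A5 made up 74.1% of their joint UMIs (exact 95% interval 72.5% to 75.7%), but from 29.6% to 96.4% in single cells. The dispersion of that split (squared deviation from the pooled ratio over its binomial variance, 1 for counting error alone) was 2.96. For 351 pairs of spike-in RNAs with means of 1 to 40 UMIs, which share no biology, it had a median of 1.48 and reached 2.26. Each gene alone also had a dispersion above that of every spike-in, as given below. The split was not computed for pairs of genes outside the members, so the spread is not shown to be particular to this pair. This measure can rise with counts, and SLC25A5 and SLC25A6 are the pair with the most UMIs (3066), while pairs with fewer UMIs had wider ranges in single cells, such as 7.69% to 90% for VDAC3 with VDAC2. Splits between VDAC3 and VDAC2 (1.58), VDAC3 and VDAC1 (1.44), VDAC2 and VDAC1 (1.66), TIMM17A and TIMM17B (1.49) and TIMM8B and TIMM8A (1.70) lay within the range of spike-in pairs. Across cells the shares of SLC25A5 and SLC25A6 had a Spearman rho of 0.00522. With cells thinned to 10940 UMIs the dispersion of their split was 2.30, and without the 5 shallowest cells 3.09. Spike-in pairs were not recomputed for these settings.

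**Figure D2:**
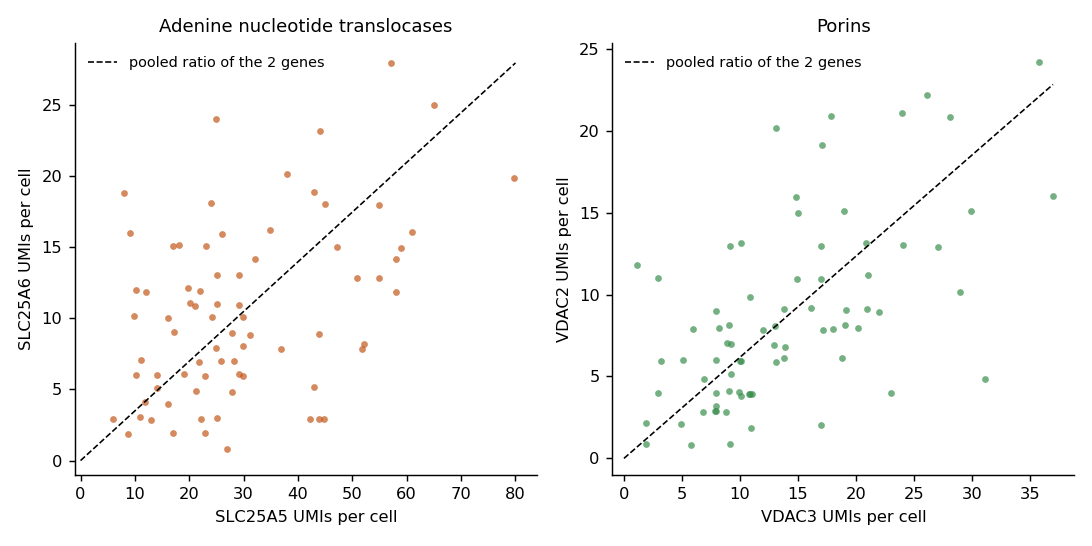
UMIs per cell of SLC25A6 against SLC25A5 (left) and of VDAC2 against VDAC3 (right), with 1 point per cell, moved by up to 0.2 UMI to part overlapping points, and the pooled ratio as a dashed line. Cells scatter widely about the line for the translocases (split dispersion 2.96) and less for the porins (1.58).

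Of the members described cell by cell, 23 had a Pearson dispersion no higher than that of the highest spike-in RNA. The Pearson dispersion sets the squared deviation from the count expected from a cell's total against that expectation, so that counting error alone gives 1. Over the 29 members it ran from 1.27 (TOMM70A) to 3.41 (SLC25A5). The median was 1.70, against 1.76 for all 2810 genes at that level and 1.53 for the spike-ins. Of these members, 6 (20.7%) exceeded the highest of 36 spike-in RNAs (2.20), as did 21.6% of all genes, so the family does not stand out from the background. The 6 were SLC25A5 (3.41), SLC25A6 (3.40), SLC25A1 (2.69), TIMM13 (2.42), TOMM7 (2.33) and SLC25A11 (2.24). SLC25A11 was below the limit without the 5 shallowest cells. With thinned cells only SLC25A6 of 24 members passed (8.57% of all genes did), and with spike-in totals as the scale 20 of 29 did (46.8% of all genes). Spike-ins were not thinned, so thinned genes were set against a limit from spike-ins at full depth (2.30). The count with thinned cells is therefore not comparable with the 6 above.

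Dispersion grows with abundance, so the CV left after counting error was also computed. It was 47.9% for SLC25A6 and 28.4% for SLC25A5, 25.7% for TOMM7 and 16.7% for VDAC3. For the 7 members averaging 10 UMIs or more the median was 28.4%. For the 17 spike-ins averaging 10 or more it was 12.4%, and the highest had 22.5%. The 2 sets were not matched in abundance, since the spike-in means reached 560 UMIs and those of the members 29.9. How many of all genes averaging 10 or more lie above those spike-ins was not computed, so a CV above theirs is not shown to be particular to the members. By this measure VDAC3 alone of the 7 lay within the range of those spike-ins. TOMM5 (32.8%) and SLC25A3 (25.6%), both under the dispersion limit, lay above it, and SLC25A6 was highest. SLC25A1, with far fewer UMIs, had 72.7%. The share of other mitochondrial lists above the spike-in limit was 42.6% of 68 nuclear genes of oxidative phosphorylation and 13.9% of 72 mitochondrial ribosomal protein genes, which differ from the members in abundance.

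**Figure D3:**
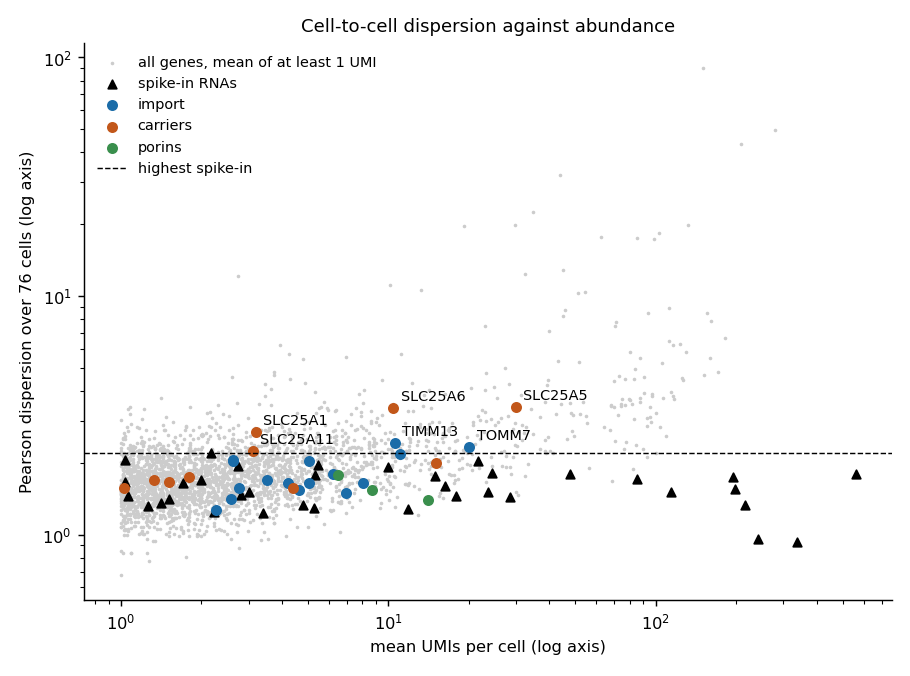
Pearson dispersion over 76 cells against mean UMIs per cell, both on log axes, for 2810 genes (grey), 36 spike-in RNAs (triangles) and the members by role (coloured). The 6 labelled members lie above the dashed line at the highest spike-in (2.20).

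Single members showed little shared variation across cells. Over the 406 pairs of the 29 members the mean Spearman rho of shares across cells was 0.0183, against 0.0140 over all pairs of the 2810 genes. It was 0.0255 within import genes, 0.0266 within carriers and 0.0951 within the 3 porin pairs. The summed import and carrier shares had a rho of 0.252 (r = 0.167), which was 0.144 with thinned cells. Of the member pairs 4.19% lay above the 95th percentile of all gene pairs (0.222) and 4.68% below the 5th (-0.195), near the shares of the background. The highest pairs were SLC25A6 with TIMM8B (0.314), TIMM9 with TOMM40 (0.302), SLC25A6 with VDAC1 (0.301), SLC25A1 with SLC25A33 (0.291) and TIMM13 with TOMM7 (0.284). The lowest were TIMM44 with TIMM8A (-0.345), SLC25A4 with TIMM9 (-0.334), TIMM10 with VDAC1 (-0.278), TIMM13 with TIMM50 (-0.271) and SLC25A33 with TOMM7 (-0.249). None of these joins 2 subunits of 1 complex. For such low counts weak correlations are not read as findings, and the values share each cell's total as denominator. The 13 mitochondrial messenger RNAs, by contrast, had a mean rho of 0.729, and mitochondrial ribosomal protein genes 0.0127.

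Carriers had smaller shares in cells with larger shares of mitochondrial messenger RNA. These are the 13 protein messages of the mitochondrial genome, which took 1.24% to 8.68% of a cell's UMIs. Across the 76 cells the summed carrier share had a Spearman rho of -0.566 with their share (Pearson r = -0.532), the import share -0.287 (r = -0.283; -0.102 with totals that leave out ribosomal protein, mitochondrial and the 10 most abundant genes) and the porin share -0.0914 (r = -0.0667). The carrier value was negative with each of the 13 messages, from -0.580 for MT-CO2 to -0.305 for MT-ND3. These are not separate observations, since the messages vary together (mean rho 0.729). The value for the summed carrier share was -0.596 without the 2 cells farthest from the median mitochondrial share and -0.547 with thinned cells. It was -0.480 with mitochondrial rows left out of the carriers' denominator. The values without 2 cells and without mitochondrial rows were added after seeing the data. With spike-in totals as the scale, where both measures also carry how much RNA a cell holds, it turned to 0.284.

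**Figure D4:**
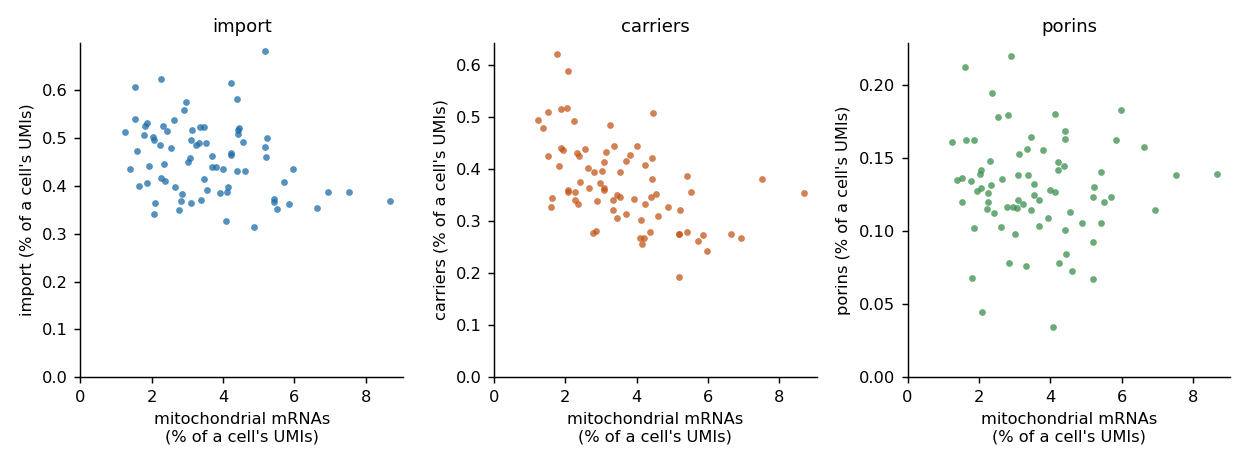
Summed shares of import genes, carriers and porins (vertical axes, percent of a cell's UMIs) against the share of the 13 mitochondrial messenger RNAs (horizontal axes, percent of a cell's UMIs), with 1 point per cell. The carrier share declines to the right (rho = -0.566), the import share less (-0.287) and the porin share has no visible trend (-0.0914).

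SLC25A6 had the lowest value of the members. Its share had a rho of -0.549 with the mitochondrial share, the 13th lowest of 2797 genes, SLC25A5 had -0.310 and SLC25A3 -0.250. On the spike-in scale SLC25A6 stayed negative at -0.137. Without SLC25A6 the summed carriers had -0.421, without SLC25A5 -0.454 and without both -0.236. The 29 members had a median of -0.107 against -0.0267 over all genes, and 8 lay below -0.2, as did 16.4% of all genes. Lower than SLC25A6 were genes of other kinds, the lowest being HNRNPA1 (-0.704), RPL13 (-0.697), RPS3 (-0.690), the cristae organising gene CHCHD3 (-0.673) and RPL3 (-0.653), named after their values were seen. The mitochondrial share also had a positive rho with the G2 and M phase share (0.353), with which carriers had -0.323, while its rho with a cell's UMIs was 0.0702 and with spike-in UMIs 0.0731. The part of the cell cycle in the carrier relation was not tested.

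With mitochondrial ribosomal protein genes the members had a higher median rho than all genes. For the summed share of these 74 genes the median of the 29 members was 0.118, against 0.0114 over all genes. Of the members 9 lay above 0.2, as did 7.56% of all genes. SLC25A17 (0.341), TIMM17B (0.319) and TOMM40 (0.263) were highest. The summed import share had 0.345 and the summed carrier share 0.326. Among other summed lists, nuclear genes of oxidative phosphorylation had 0.277 with the same share, cytosolic ribosomal protein genes 0.135 and mitochondrial messenger RNAs -0.258. With nuclear genes of oxidative phosphorylation the import share had 0.234 (0.416 with totals that leave out abundant genes) and carriers 0.0549, and TOMM5 was the highest member at 0.410, the 22nd highest of 2742 genes. With cytosolic ribosomal protein genes import had 0.298 (0.482 with those totals), carriers 0.138 and porins -0.219, with TIMM9 (0.293) and TOMM7 (0.257) as the highest members. The ribosomal share had a rho of -0.454 with a cell's UMIs, with which import had -0.112, carriers -0.177 and porins 0.190.

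**Figure D5:**
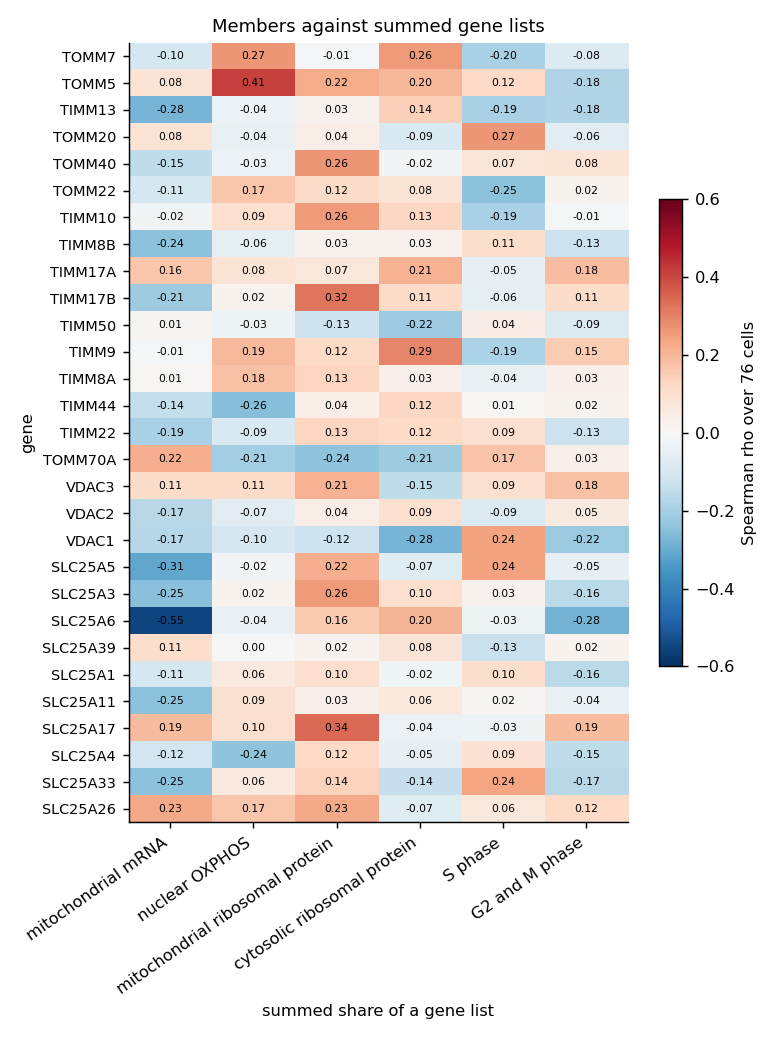
Spearman rho over 76 cells between each of the 29 members (rows) and the summed share of 6 gene lists (columns), with red for positive and blue for negative values. SLC25A6 against mitochondrial messenger RNA (-0.549) is the strongest cell of the map, followed by TOMM5 against nuclear oxidative phosphorylation genes (0.410).

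The S phase share had rho values of -0.122 with import, 0.138 with carriers and 0.199 with porins, the last of which was 0.0129 as Pearson r of log values. TOMM20 (0.266), SLC25A5 (0.240), VDAC1 (0.240) and SLC25A33 (0.236) had the highest values and TOMM22 (-0.245) the lowest. Of all genes 14.5% lay above 0.2 and 4 of 29 members did. With the G2 and M phase share 0 members lay above 0.2 (11.3% of all genes did) and SLC25A6 was lowest at -0.283.

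By the summed import share, the genes outside the family with the most similar pattern over the 76 cells were PSMD8 (rho = 0.425), ACBD6 (0.422), GAPDH (0.380), RPL35 (0.3697) and PRELID1 (0.364), where 95% of 2781 genes lay below 0.214. For carriers they were FTH1 (0.485), HNRNPA1 (0.473), RPL13 (0.463), RPL8 (0.461) and SSB (0.446), above a 95th percentile of 0.245.

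Promoters of the members had the GC and CpG content of expressed genes in general. RefSeq promoters of GRCh38.p14 were matched for 56 of 65 members. Their median GC content was 66% (65.7% for 2276 genes averaging 1 UMI or more, 59.7% for all 27195 genes in the table) and their median number of CpG 28 (28 and 16), taking the highest value where a gene has several starts. The letters CCGGAAG, of the ETS type, were found on either strand in 21 of 56 members (37.5%), against 28.9% of the expressed genes and 12.2% of all. CCAAT was found in 46.4% (46% and 39.7%), TATAAA in 5.36% (7.86% and 14%), the YY1 motif in TIMM50 alone (3.82% and 1.05%) and the NRF1 motif in 0 (3.47% and 1.52%). These exact matches are descriptions of letters and none was tested. The leading import genes are shown because they were the most abundant of their complexes and among the 5 highest pairs: TOMM7 at chr7:22822800-22823099 and TIMM13 at chr19:2427537-2427836, both on the minus strand.
TOMM7: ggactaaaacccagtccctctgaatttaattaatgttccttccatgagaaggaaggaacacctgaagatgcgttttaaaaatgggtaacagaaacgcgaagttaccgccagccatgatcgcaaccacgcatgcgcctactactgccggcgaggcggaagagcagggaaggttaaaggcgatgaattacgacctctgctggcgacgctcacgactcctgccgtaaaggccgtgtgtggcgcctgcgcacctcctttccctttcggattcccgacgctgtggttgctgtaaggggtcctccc
TIMM13: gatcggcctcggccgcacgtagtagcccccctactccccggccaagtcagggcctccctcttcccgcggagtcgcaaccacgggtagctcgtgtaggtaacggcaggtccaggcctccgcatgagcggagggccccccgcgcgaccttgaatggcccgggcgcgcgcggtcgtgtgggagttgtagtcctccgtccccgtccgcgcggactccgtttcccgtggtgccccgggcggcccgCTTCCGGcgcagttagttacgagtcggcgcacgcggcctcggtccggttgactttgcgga
TIMM13 holds the ETS-type letters on the reverse strand (CTTCCGG in the strand shown), beginning 10 bases before the start, and TOMM7 holds none of the 5 motifs. GC content was 54.3% for TOMM7 and 71% for TIMM13.

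Partners of import outside the family were led by the matrix chaperonin. Of 23 such genes all had a UMI (96.6% of all gene rows did), and 13 averaged 1 or more (16% of all gene rows did). HSPD1 and HSPE1, which fold imported proteins, gave 28.2 ± 18.6 and 17.7 ± 10.3 UMIs per cell, and ROMO1, a small inner membrane protein, 16.1 ± 8.73. These 3 were also the only ones of the 13 above the spike-in dispersion limit (23.1%, against 21.6% of all genes). In the import motor, HSPA9 gave 5.03 ± 3.66 UMIs, DNAJC19 5.11 ± 3.61, PAM16 4.68 ± 3.41 and GRPEL1 4.09 ± 3.21, each above TIMM44 (2.62). Lower levels were found for SAMM50, core of the outer membrane sorting machinery (1.92 ± 1.65), the processing peptidase subunits PMPCB (1.41 ± 1.68) and PMPCA (1.26 ± 1.64), and CHCHD4, the oxidoreductase that folds small TIM proteins (0.816 ± 1.38).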

How the data were processed

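The authors deposited 1 table of raw UMI counts for each gene in each cell. Per the labels, UMIs were added by template switching. Tools listed in the submitters' processing notes are STAR 2.4.0a and cutadapt 1.2.1, and the build is hg19. Neither the counter nor its annotation, strand setting or cell filter is stated there. A row that repeats the column numbers (0.197% of all values) was left out, and 80 spike-in rows were kept apart. Columns were matched to cells by title; 0 stayed unmatched and 0 pairs of cells were identical. Doublets were not called.

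Members and lists were chosen with earlier results of these data known. Shares are percent of a cell's gene UMIs, correlations are across cells, and expected counts follow cell totals. Thinning drew 10940 UMIs from each of 71 cells, leaving out 5 shallower cells. Dispersion, split and correlation code was tested on simulated data. Every member with a mean of at least 1 UMI is named. Below that, named members are import genes, the 5 highest carriers, paralogue pairs and the 5 extremes of each correlation; a few more were named after their values were seen. Nuclear oxidative phosphorylation genes were taken by symbol prefix, assembly factors included. Alternatives were fewer cells, thinning, other scales, minimum means, tag collisions and Pearson correlation. Python 3.11.15, numpy 2.4.6, pandas 2.3.3, scipy 1.17.1 and matplotlib 3.10.9 were used.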

Additional observations from a re-analysis of the deposited data

How the results depend on the processing

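Of 39 alternative values for the main results, 33 stayed within set bounds. Counts had to move by less than 1.5 times and correlations of summed shares by less than 0.115. The family share had to move by less than 1 SD over cells, and the mean pairwise rho by less than 1 SD over member pairs. Within these bounds, members averaging 1 UMI or more numbered 24 with thinning, and 39 and 20 with minimum means of 0.5 and 3. With totals free of ribosomal protein, mitochondrial and the 10 most abundant genes, the family share was 1.5%, since the denominator is smaller. Of 29 members 20 exceeded the spike-in dispersion limit with spike-in totals as the scale. With thinned cells 1 of 24 did, but the spike-ins that set the limit were not thinned. With spike-in totals the mean pairwise rho of members was 0.228 and the rho of import with carriers 0.798. On that scale carriers with mitochondrial messenger RNA turned to 0.284, import with mitochondrial messenger RNA to 0.441, import with S phase to 0.618, import with G2 and M phase to 0.575, carriers with G2 and M phase to 0.520 and porins with cytosolic ribosomal protein genes to 0.681. There, the amount of RNA in a cell is part of both measures. By Pearson r of log values porins with cytosolic ribosomal protein genes had 0.0157, and the cause was not tested. For members seen in few cells, low depth and absence cannot be told apart. No paired analysis was possible because there is 1 group.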

Other observations

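Genes of the MICOS complex, which shapes the cristae of the inner membrane, were measured too. Of these, 5 of 7 averaged 1 UMI per cell or more, as did 16% of all gene rows. C19orf70 gave 5.47 ± 3.21 UMIs, CHCHD3 5.33 ± 3.49 and IMMT, which encodes the large scaffold subunit, 2.79 ± 2.67. CHCHD6 (2.01 ± 2.26 UMIs) was the one gene of the 5 above the spike-in dispersion limit, with 2.65 (21.6% of all genes were above it).

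Relatives of the SLC25 carriers whose symbols fall outside the rule, and the pyruvate carrier of a separate family, were also present. MTCH2, an outer membrane insertase, gave 4.66 ± 2.93 UMIs per cell, the pyruvate carrier subunits MPC1 and MPC2 gave 3.89 ± 3.06 and 2.82 ± 2.43, MTCH1 3.14 ± 2.41 and the uncoupling protein gene UCP2 2.21 ± 1.94, while UCP3 had 0 UMIs. All 5 detected genes had a higher mean than SLC25A17 (1.80), and 0 of 5 passed the dispersion limit, which 21.6% of all genes passed.

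The pseudogene rows left out by the rule held few UMIs, with 11 for VDAC1P2 as the most, and SLC25A21-AS1 had 0.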
